A study of Homo sapiens with 6 samples.

Results

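Cells that sense foreign or misplaced RNA switch on interferons, and interferons switch on a large set of antiviral genes. In the cytosol RIG-I (gene RIGI), MDA5 (IFIH1) and their regulator LGP2 (DHX58) bind double-stranded or otherwise unusual RNA and signal through the mitochondrial adaptor MAVS, while TLR3 reads such RNA in endosomes. The signal activates the transcription factors IRF3 and IRF7, which induce type I interferons. Secreted interferon binds the receptor of IFNAR1 and IFNAR2 and activates a complex that contains STAT2 and IRF9, which binds the interferon-stimulated response element in the promoters of its target genes.

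The set described here holds 39 such genes, listed by name, of which 25 are among the 13407 genes tested in the series. Expression was measured on 1-colour Affymetrix arrays of the SH-SY5Y line, which was established from a human neuroblastoma, with both groups cultured in a mix of MEM and F12 media plus fetal bovine serum. There were 3 arrays of untreated control cells and 3 of cells given 100 µM manganese for 24 h, which the labels state as the median lethal concentration divided by 5. Arrays within a group are biological replicates by label, with no word on whether their cultures were separate, so the tests measure the spread between these arrays. The RNA came from whole cultures, in which fewer cells of a type and less RNA per cell cannot be told apart. Values are log2 signals after RMA, the array normalization that the submitters' notes name, so a difference of 1 is a 2-fold difference. A level on this scale belongs to its probe set, so levels are compared between arrays and not between genes.

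Array control 1 was the least like the rest: its Pearson correlations across the genes tested were 0.967 to 0.981, against 0.984 to 0.996 among the others. The 12 poly(A) spike-in probe sets averaged 6.14 on control 1 and 5.81 on control 3, but 7.79 on control 2 and 7.80 to 7.91 on the manganese arrays, so the main results are also given against single controls. Of 12 markers of noradrenergic neuroblasts 10 passed the filter on dim probe sets explained below, and the markers with a probe set averaged 10.45 to 10.54 on the control arrays and 10.33 to 10.38 on the manganese arrays, with no overlap. Of 10 leukocyte markers 6 passed, CD3E, CD68, ITGAM, LCP1, CORO1A and TYROBP, while PTPRC, CD14 and SPI1 did not. The leukocyte list averaged 4.91 to 5.07 on control and 5.00 to 5.15 on manganese arrays. The 9 fibroblast markers (7 passing) averaged 5.28 to 5.43 against 5.23 to 5.28, and the 8 epithelial markers 4.92 to 5.11 against 5.15 to 5.25, both also without overlap. Of the epithelial markers 6 passed, KRT8, KRT18, KRT19, KRT5, KRT14 and CLDN4, while EPCAM and CDH1 did not. The 5 markers of astrocytes or glia with a probe set (4 passing) averaged 5.15 to 5.27 against 5.14 to 5.22. No gene of these 5 lists passed the threshold of the test. The part of these differences in the results below was not tested.

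The response element itself can be seen in the promoters of the set. The motif searched was GAAA, then any 2 bases, then GAAA again, on either strand, in RefSeq promoters (GRCh38.p14) that run from 250 bases before to 50 after each transcription start. Copies may overlap each other. The motif was present for 18 of the 29 members with a promoter entry (62.1%) and for 4.38% of the 27305 genes in the table. The windows below are shown because they compare members whose transcripts lay under the filter with members that passed it. Capitals mark the motif copies that lie wholly before the start, each sequence is written 5′ to 3′ on the strand of its gene, and TTTC, any 2 bases and TTTC is the same motif read on the other strand.
IFIT1: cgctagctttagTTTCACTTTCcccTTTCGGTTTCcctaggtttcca
IFIT3: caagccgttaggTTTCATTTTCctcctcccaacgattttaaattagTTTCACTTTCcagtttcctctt
BST2: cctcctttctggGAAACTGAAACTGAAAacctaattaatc
IFIT5: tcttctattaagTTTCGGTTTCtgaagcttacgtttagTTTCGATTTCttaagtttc
ISG15: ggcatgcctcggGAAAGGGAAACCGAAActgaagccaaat
IFI6: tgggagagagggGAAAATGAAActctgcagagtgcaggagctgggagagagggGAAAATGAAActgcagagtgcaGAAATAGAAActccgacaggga
The windows lie at chr10:89392495-89392541 (+) for IFIT1, chr10:89327829-89327896 (+) for IFIT3, chr19:17405733-17405772 (-) for BST2, chr10:89414511-89414567 (+) for IFIT5, chr1:1013372-1013411 (+) for ISG15 and chr1:27672264-27672360 (-) for IFI6. The 2 copies of BST2 overlap, as do the 2 of ISG15. IFIT5 has 3 copies in all, of which the one across the start site is not printed. A match describes the letters only and does not show a bound site.

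A number of the best known antiviral genes lay in the dim range of every array, in untreated and manganese cells alike. Of the 39 members 25 passed the filter, which asks that a probe set rank over the 40th percentile of an array on 3 or more of the 6, 11 had only dimmer probe sets, and STAT2, USP18 and PSMB8-AS1, which no probe set names alone, were not analysed here. All 25 were above that percentile on all 6 arrays, while the 26 probe sets of the 11 dim members were above it on none. The percentile was 4.37 to 4.40 on the 6 arrays. It is a rank and not a detection limit, and the presence or absence of a dim transcript was not tested. Of the dim members with a promoter entry, 8 of 9 had the motif, against 9 of 18 tested members and 3.62% of all tested genes with an entry.

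**Figure D1:**
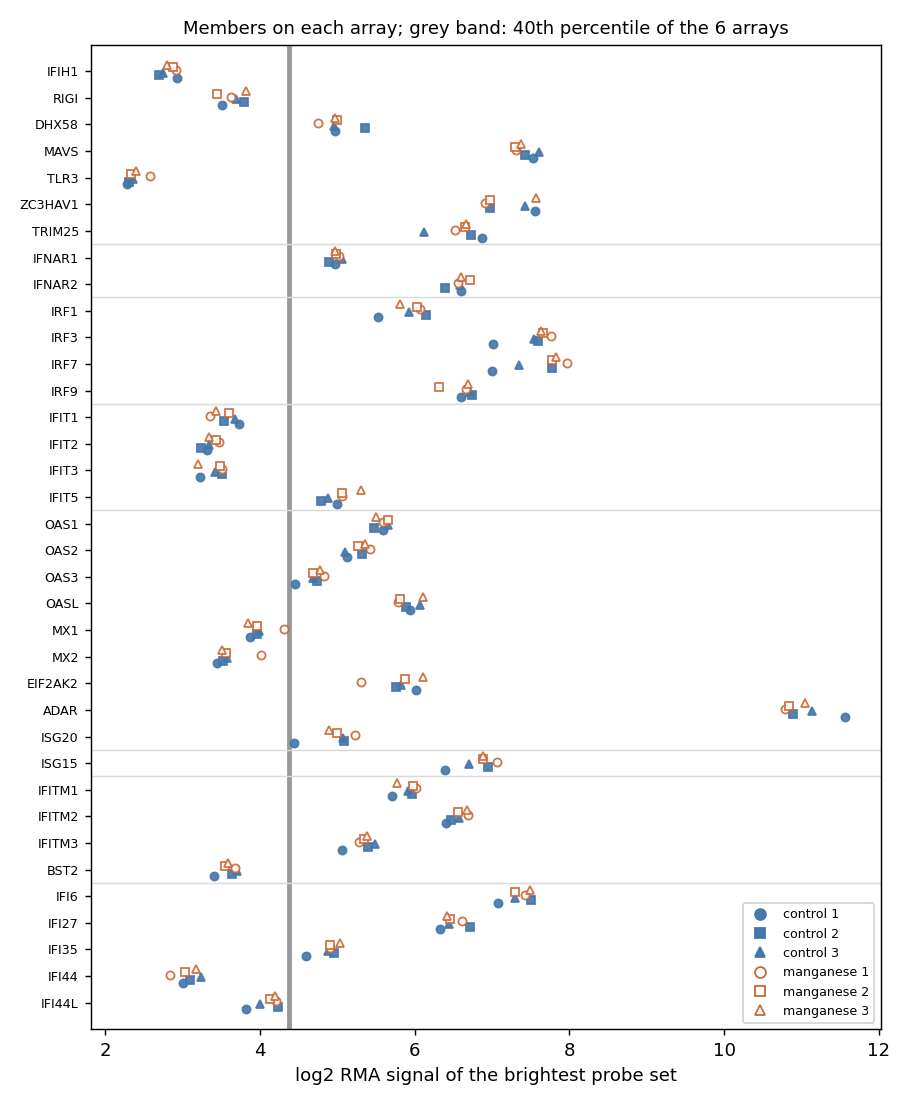
Log2 RMA signal (horizontal axis) of the brightest probe set of each of 36 members on the 3 control arrays (filled) and the 3 manganese arrays (open), grouped by role between the lines. The grey band is the range of the arrays' 40th percentiles, 4.37 to 4.40, and IFIH1, RIGI, TLR3, IFIT1, IFIT2, IFIT3, MX1, MX2, BST2, IFI44 and IFI44L lie to its left on all 6 arrays.

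The dim members include 3 RNA sensors, IFIH1, RIGI and TLR3, and much used markers of an interferon response, such as IFIT1 and MX1. The filter kept them out of the test, and with no filter limma called 0 of the 36 members that have a probe set at an adjusted p under 0.05, with 1 at an unadjusted p under 0.05. Over all 18132 genes without the filter 0.116% passed the first threshold (21 genes) and 11.6% the second. IFIT1, which binds viral RNA that lacks cap methylation, was at 3.73, 3.53 and 3.67 on control arrays 1 to 3 and at 3.36, 3.60 and 3.43 on manganese arrays 1 to 3. Its groups overlapped, and manganese 2 lay within the range of the controls. IFIH1, the gene of the sensor MDA5, was at 2.92, 2.69 and 2.75 on the controls and 2.92, 2.88 and 2.79 on the manganese arrays. RIGI was at 3.51, 3.79 and 3.69 against 3.63, 3.44 and 3.82, and both groups covered nearly the same range. TLR3 was at 2.28, 2.30 and 2.35 against 2.57, 2.33 and 2.40. MX1, a dynamin-like GTPase that blocks viral nucleocapsids, was at 3.87, 3.96 and 3.98 against 4.31, 3.97 and 3.84. Among the 11 dim members, the array manganese 1 was the highest for TLR3, IFIT2, IFIT3, MX1 and the related GTPase MX2. Manganese minus control differences of the 11 ranged from -0.18 for IFIT1 to 0.18 for MX2, with 8 of them positive and 0 with groups that did not overlap, while of all genes without the filter 56.1% were positive and 17.8% had groups that did not overlap. The members nearest the filter were MX1, at 4.31 on manganese 1, just below it, and ISG20, at 4.44 on control 1, just above it.

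No tested member changed past the threshold with manganese. At a limma adjusted p under 0.05 the count was 0 of 25, in a comparison where 0.142% of all genes passed (19 genes, 0.134% higher and 0.00746% lower with manganese). At an unadjusted p under 0.05 there was 1 member, IRF7, against 12.8% of all genes. The differences ran from -0.31 for ADAR to 0.48 for IRF7, with 18 of 25 positive and a median of 0.06. Over all genes tested 54.1% were positive, with a median of 0.02. All 25 members had 95% intervals inside -1 to 1, the widest bounds being -0.71 for ADAR and 0.92 for IRF7, so a 2-fold change in either direction lies outside the interval of each. Over all genes 94.5% had such an interval. Groups did not overlap for 3 members, against 19.8% of all genes. IFIT5 and IRF3 were higher with manganese (10.5% of all genes were) and MAVS was lower (9.26%). With limma's array weights 6 members passed an adjusted p under 0.05, among 3945 genes called. IRF7, IFIT5, OAS2 and TRIM25 were higher, at 0.48, 0.23, 0.22 and 0.46, and MAVS and ADAR lower, both at -0.28. Against control 3 alone these differences were 0.51, 0.27, 0.24, 0.50, -0.28 and -0.25 in the same order. TRIM25 was at 0.04 in the unweighted fit. How far the weighted calls rest on 1 array was not tested.

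**Figure D2:**
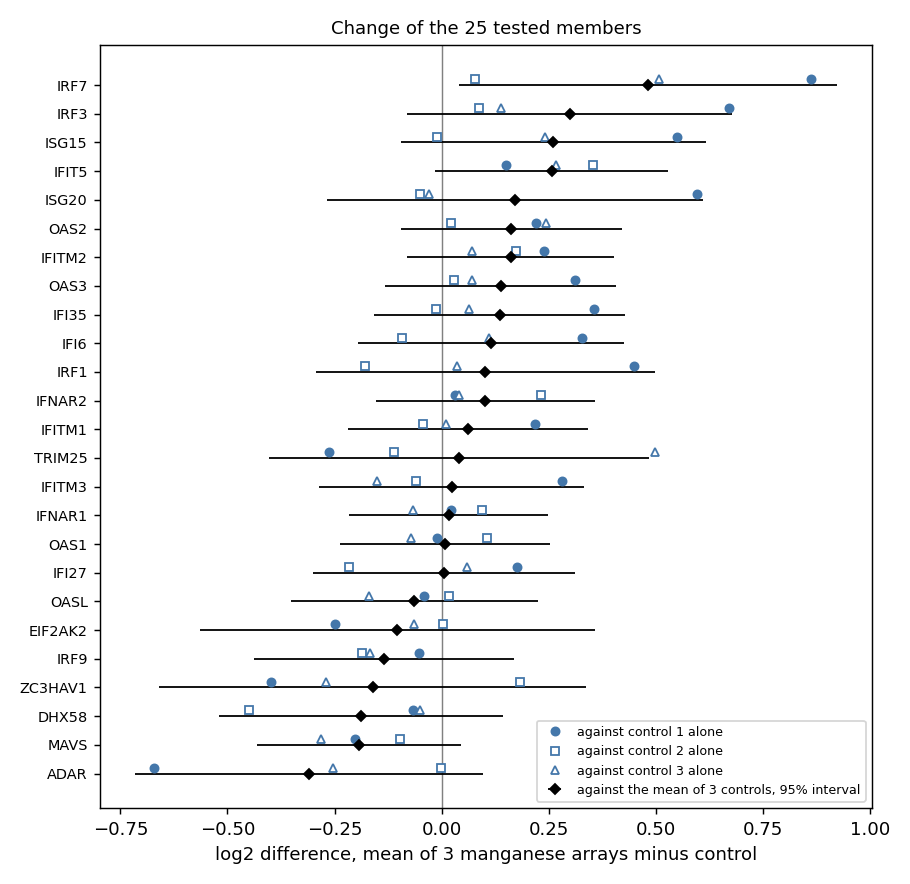
Log2 difference (horizontal axis) of the 25 tested members, as the mean of the 3 manganese arrays minus the mean of the 3 controls (black, with the 95% interval from limma) and minus each control array alone (blue). The members run from ADAR at -0.31 to IRF7 at 0.48, and the points against control 1 (filled) lie farthest from 0 for IRF7, IRF3, ADAR, ISG20 and ISG15.

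Among the RNA sensors and their adaptors 4 of 7 members were tested, and 3 of the 4 had negative differences. MAVS, the adaptor on which RIG-I and MDA5 converge, was at 7.53, 7.43 and 7.61 on the controls and at 7.31, 7.30 and 7.38 on the manganese arrays. All 3 manganese arrays lay below all 3 controls, though the gap between manganese 3 and control 2 was small. The log2 difference was -0.19 (SE 0.10), at an adjusted p of 0.458 by limma. It was -0.20 against control 1, -0.10 against control 2 and -0.28 against control 3. Of the 6 probe sets of MAVS that passed the filter 5 had negative differences and 1 was at 0.18, so the gene's probe sets differ in sign. DHX58, which encodes the regulator LGP2, was at 4.97, 5.35 and 4.95 against 4.75, 4.99 and 4.97. Control 2 was its highest array. The difference was -0.19 (SE 0.14, adjusted p 0.594), and it was -0.45 against control 2, -0.07 against control 1 and -0.05 against control 3. Its other passing probe set gave 0.10. ZC3HAV1, the antiviral protein ZAP that binds CpG-rich RNA, differed by -0.16 (95% interval -0.66 to 0.34), but its 3 probe sets gave -0.47, -0.16 and 0.35. TRIM25, a ubiquitin ligase that acts with RIG-I and ZAP, differed by 0.04 (-0.40 to 0.48), and its controls were spread from 6.11 to 6.87.

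Both receptor genes were tested, each with overlapping groups. IFNAR1 was at 4.97, 4.90 and 5.06 on the controls and 5.02, 4.98 and 4.97 on the manganese arrays, which lay inside the range of the controls, a difference of 0.02 with an SE of 0.10 and an adjusted p of 0.959. IFNAR2 was at 6.59, 6.39 and 6.58 against 6.56, 6.72 and 6.60. Its groups overlapped, and its difference was 0.10 with an SE of 0.11 and an adjusted p of 0.721. Of its 3 probe sets 2 were positive and 1 was at -0.26 with groups that did not overlap, and the brightest is marked as shared with other transcripts.

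The transcription factors IRF3 and IRF7 had the 2 highest differences of the set, and for both the difference was largest against control 1. IRF7, the factor that amplifies interferon production, was at 6.995, 7.78 and 7.35 on the controls and at 7.97, 7.78 and 7.83 on the manganese arrays. Control 2 lay at the level of the manganese arrays, and control 1 lay well below every other array. The difference was 0.48 with an SE of 0.19 and an adjusted p of 0.361, and it was 0.86 against control 1, 0.08 against control 2 and 0.51 against control 3. IRF3, the constitutive factor that starts the interferon response, was at 7.01, 7.59 and 7.54 against 7.76, 7.65 and 7.63. All manganese arrays lay above all controls, by a small step from control 2 to manganese 3. The difference was 0.30 with an SE of 0.16 and an adjusted p of 0.471. Against control 1 it was 0.67, against control 2 0.09 and against control 3 0.14. The 6 IRF3 probe sets were all positive, from 0.15 to 0.51, and 4 of them had groups that did not overlap, but against control 2 they ranged from 0.01 to 0.25. They read transcripts of 1 gene on the same arrays and are not separate replicates. IRF9, the DNA-binding partner of the STAT complex, had 4 probe sets with negative differences, from -0.21 to -0.07, and 2 of them had groups that did not overlap. Its brightest differed by -0.14 (-0.44 to 0.17), with manganese 2 at 6.31 and the other arrays between 6.60 and 6.74. IRF1, which interferon-gamma induces, differed by 0.10 (-0.29 to 0.50), with control 1 the lowest array at 5.52 and control 2 the highest at 6.15.

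In the IFIT family only IFIT5 passed the filter, and its manganese arrays lay above every control. IFIT5, which binds the 5′ ends of uncapped RNA, was at 4.99, 4.79 and 4.88 on the controls and at 5.06, 5.06 and 5.30 on the manganese arrays. Manganese 3 was highest, and the step from control 1 to the lower manganese arrays was small. The difference was 0.26 with an SE of 0.12 and an adjusted p of 0.409. It was 0.15 against control 1, 0.35 against control 2 and 0.27 against control 3, and was thus smallest against control 1. The other passing IFIT5 probe set, which was dimmer, gave 0.01. IFIT1, IFIT2 and IFIT3, whose genes lie beside it on chromosome 10, were below the filter on every array.

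**Figure D3:**
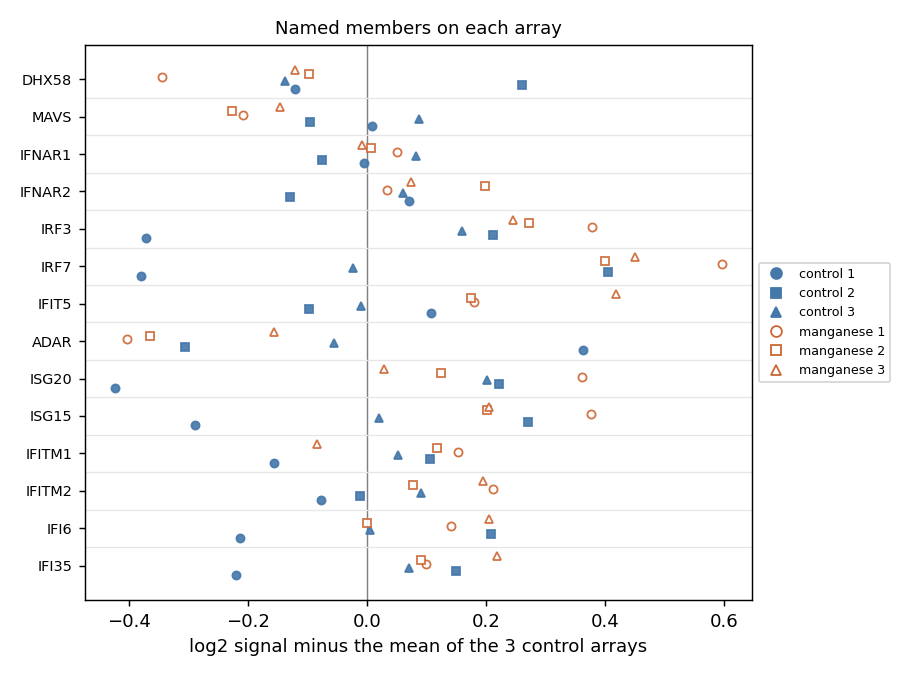
Log2 signal of 14 named members on each array minus the mean of the 3 controls (horizontal axis), with controls filled and manganese arrays open. Control 1 (filled circle) is the lowest of the 6 arrays for IRF3, IRF7, ISG20, ISG15, IFITM1, IFITM2, IFI6 and IFI35 and the highest for ADAR, while IFIT5 has all 3 manganese arrays above the controls.

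Among the enzymes and GTPases that act on viral RNA or proteins, ADAR had the lowest difference. ADAR, which edits adenosine to inosine in double-stranded RNA and so keeps a cell's own RNA from the sensors, was at 11.56, 10.89 and 11.14 on the controls and at 10.79, 10.83 and 11.04 on the manganese arrays. Control 1 was the highest array, and manganese 3 lay between control 2 and control 3. The difference was -0.31 with an SE of 0.18 and an adjusted p of 0.483. It was -0.67 against control 1, -0.25 against control 3 and -0.00 against control 2. Its 5 passing probe sets gave nearly the same difference, from -0.31 to -0.28, although 4 of the 5 had overlapping groups, and against control 2 they ranged from -0.25 to 0.03. ISG20, an exonuclease, was at 4.44, 5.09 and 5.07 against 5.23, 4.99 and 4.90. Control 1 alone was low, and the difference of 0.17 (SE 0.19, adjusted p 0.725) became -0.05 against control 2 and -0.03 against control 3. EIF2AK2, the kinase PKR that stops translation when it binds double-stranded RNA, differed by -0.10 (-0.56 to 0.36), and its manganese arrays were spread from 5.31 to 6.11. The oligoadenylate synthetases, which make the activator of RNase L, differed by 0.01 for OAS1, 0.16 for OAS2, 0.14 for OAS3 and -0.06 for OASL, each with overlapping groups. Probe sets of OAS1 and of OAS2 differed in sign.

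ISG15, the ubiquitin-like modifier, and the membrane proteins had small positive differences, with overlapping groups at the brightest probe set of each. ISG15 was at 6.39, 6.95 and 6.70 on the controls and 7.06, 6.88 and 6.89 on the manganese arrays, with control 2 inside the manganese range. The difference was 0.26 with an SE of 0.15 and an adjusted p of 0.498. It was 0.55 against control 1, -0.01 against control 2 and 0.24 against control 3. IFITM2, which hinders virus entry from endosomes, was at 6.40, 6.46 and 6.57 against 6.69, 6.55 and 6.67, a difference of 0.16 with an SE of 0.105 and an adjusted p of 0.537. Its groups overlapped only between control 3 and manganese 2. The 2 probe sets of IFITM2 gave 0.15 and 0.16, and the groups of the dimmer one did not overlap. IFITM1 was at 5.70, 5.96 and 5.91 against 6.01, 5.98 and 5.78, a difference of 0.06 (-0.22 to 0.34), and IFITM3 differed by 0.02 (-0.29 to 0.33). The brightest probe sets of IFITM2 and IFITM3, which are close in sequence, are marked as shared, so the copy each reads is uncertain. The brightest probe set of IFITM1 is not so marked, though its other one is. BST2, or tetherin, which holds budding viruses at the cell surface, had 4 probe sets and was below the filter on all arrays.

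The other interferon-inducible genes that were tested, IFI6, IFI27 and IFI35, also had overlapping groups. IFI6, a mitochondrial survival protein with 3 motif copies in its promoter, was at 7.08, 7.50 and 7.30 on the controls and at 7.43, 7.29 and 7.49 on the manganese arrays. Its difference of 0.11 (SE 0.13, adjusted p 0.741) turned to -0.09 against control 2. IFI35 was at 4.59, 4.96 and 4.88 against 4.91, 4.90 and 5.03, a difference of 0.14 with an SE of 0.13 and an adjusted p of 0.672. Only control 1 lay outside the range of the other arrays by a clear step. IFI27 differed by 0.01 (-0.30 to 0.31), and IFI44 and IFI44L were below the filter.

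The count of members higher with manganese varied with the control array, as did the share of all genes. The 3 comparisons share the manganese arrays and are given side by side. The mean of the manganese arrays was above control 1 for 16 of 25 members, above control 2 for 12 and above control 3 for 14, against 56.3%, 51.6% and 49% of all genes. The medians were 0.18, -0.00 and 0.04, beside 0.05, 0.01 and -0.00 over all genes. All 3 manganese arrays lay above control 1 for 14 members (43.9% of all genes) and below it for 3 (33.7%). They lay above control 2 for 6 (28.9%) and below it for 8 (28%), and above control 3 for 7 (31.4%) and below it for 5 (32.1%). Against all 3 controls the mean of manganese was higher for 7 members, IFNAR2, IRF3, IRF7, IFIT5, OAS2, OAS3 and IFITM2, and lower for 4, DHX58, MAVS, IRF9 and ADAR. The same holds for 23.6% and 19.9% of all genes. Control 1 was the lowest of the 6 arrays for 12 members and the highest for 2, so that it was an extreme for 56.0% of them, while it was an extreme for 65.1% of all genes. The SD between control arrays had a median of 0.19 over the members and that between manganese arrays 0.10, beside 0.19 and 0.11 over all genes.

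**Figure D4:**
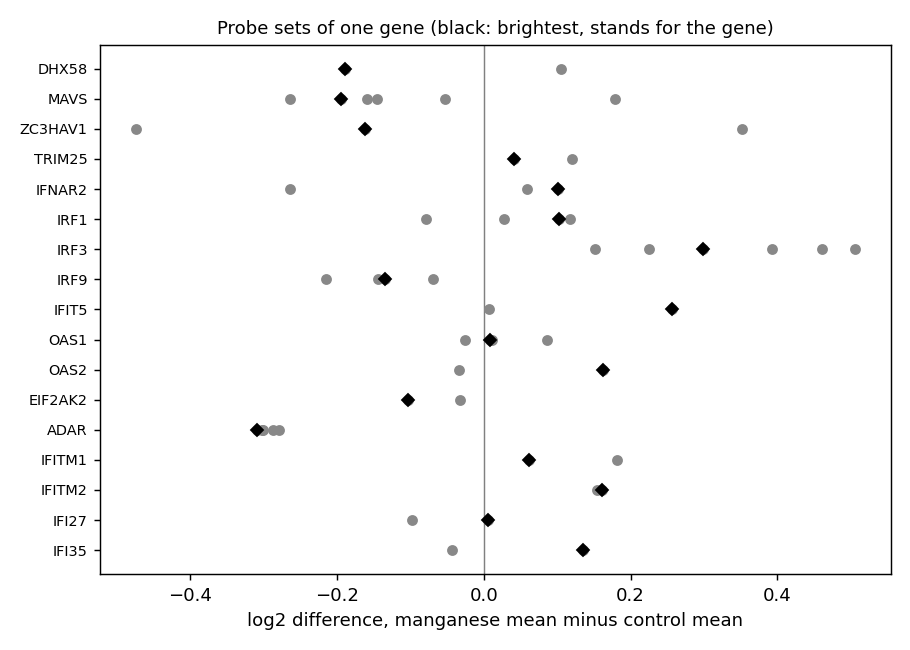
Log2 difference, manganese mean minus control mean (horizontal axis), of every passing probe set of the 17 members that have more than 1, with the brightest in black. The points of ADAR lie together between -0.31 and -0.28, those of IRF3 are spread from 0.15 to 0.51, and those of ZC3HAV1 from -0.47 to 0.35.

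Probe sets of a gene did not always give 1 answer. Of the 17 members with more than 1 passing probe set 8 had differences of a single sign and 9 of both. ADAR, IRF3, IRF9, IFIT5, IFITM1, IFITM2, EIF2AK2 and TRIM25 were the members with a single sign. Differences within a gene reached 0.83 for ZC3HAV1 and 0.44 for MAVS, beside 0.03 for ADAR.

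Members with and without the promoter motif were compared as a description, since members are not replicates. Tested members with no promoter entry, DHX58, IFNAR2, IRF3, IRF7, OAS2, OASL and IFITM2, are in neither group. They include IRF7 and IRF3, which had the highest differences of the set. The 9 tested members with the motif had a median difference of 0.11, with 8 positive, and the 9 without it had a median of 0.01, with 5 positive. Against control 1 the medians were 0.28 with the motif (8 positive) and -0.05 without it (3 positive), and against control 3 they were 0.06 (6 positive) and -0.07 (3 positive). Against control 2 they were -0.04 and -0.01, with 3 positive in each. Over all tested genes with a promoter entry the medians were 0.01 with the motif (392 genes, 53.6% positive) and 0.02 without it (10442 genes, 53.2% positive).

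The rest of the pathway, as 82 genes in 5 lists, also held no gene past the threshold. Of the 55 tested 0 passed at a limma adjusted p under 0.05, and 5 had an unadjusted p under 0.05, beside the 12.8% of all genes above. The median was 0.03, with 31 positive. In sensor signalling 10 of 15 genes were tested, 7 of them positive. NLRX1, a mitochondrial regulator of MAVS signalling, was at 7.82 on average in controls and 8.27 in manganese, with groups that did not overlap. The difference was 0.44 (adjusted p 0.326), and it was 0.66, 0.13 and 0.54 against controls 1, 2 and 3. TICAM1, the adaptor of TLR3, differed by 0.36 (adjusted p 0.405), also without overlap. Against controls 1, 2 and 3 it differed by 0.69, 0.07 and 0.33. CGAS, the DNA sensor, and IFI16, TLR7, TLR8 and RNF135 were below the filter. Among interferons and the other receptors, IFNB1 and IFNG were below the filter, IFNA1 was not analysed here, and the 5 genes tested, the ligand IFNL1 and 4 receptor chains, ran from -0.14 for IL10RB to 0.25 for IFNLR1, with 2 positive. Those with the smallest p were IFNLR1 (adjusted p 0.577) and IFNGR2, at -0.12 (adjusted p 0.635). In the JAK and STAT list 9 of 12 genes were tested and 3 were positive, with IRF5 at 0.15 (adjusted p 0.611) and STAT3 at -0.16 (adjusted p 0.634) closest to the threshold.

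Of 34 other interferon-stimulated effectors 19 were tested and 14 lay below the filter, RSAD2, HERC5, DDX60 and GBP1 among them. The 19 had 11 positive differences and a median of 0.02. PNPT1, a mitochondrial RNA exonuclease, differed by -0.44 (adjusted p 0.332) with groups that did not overlap. Against controls 1, 2 and 3 it differed by -0.72, -0.34 and -0.25. ZNFX1, a helicase that senses RNA at mitochondria, differed by -0.27 (adjusted p 0.361), also without overlap. Its differences were -0.25, -0.19 and -0.36 against controls 1, 2 and 3. Groups did not overlap for 3 of the 19 genes, against 19.8% of all genes. The third, SP100, was higher with manganese, at 0.21. In antigen presentation 12 of 13 genes were tested and 8 were positive, with a median of 0.09. HLA-C, a class I peptide-presenting molecule, averaged 8.02 in controls and 8.66 in manganese, a difference of 0.64 (SE 0.15, adjusted p 0.192) with groups that did not overlap. It was 0.88 against control 1, 0.35 against control 2 and 0.69 against control 3. HLA-B differed by 0.27 (adjusted p 0.383), also without overlap, and by 0.42, 0.16 and 0.22 against controls 1, 2 and 3. In this list groups did not overlap for 3 of the 12 genes tested, against 19.8% of all genes. The third, HLA-F, also of class I, was lower with manganese, at -0.15. Class I genes are alike in sequence, so their probe sets may read each other's transcripts.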

How the data were processed

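Deposited values are on a log2 scale, for 49395 probe sets on each of 6 arrays; the submitters' processing notes name RMA and Affymetrix Expression Console as the authors' tools, without versions. RMA gives arrays a like distribution, which can hide a shift of most transcripts. Probe sets with 1 annotated symbol (44988) were kept. The filter required a rank over the 40th percentile on 3 or more arrays, and the brightest probe set stood for its gene. Groups were compared by limma 3.58.1 (R 4.3.3; lmFit, eBayes, group as the single term, two-sided), with Benjamini-Hochberg adjustment over 13407 genes and a threshold of 0.05; SE and 95% intervals are from that fit. The script was tested on simulated data. The number of arrays limits precision. Values on each array are given for members with groups that did not overlap and the 2 largest differences in each role, and list genes are the 2 of smallest p. The dim members shown and any other genes named were chosen after their values were seen. The members, lists and tests were chosen with earlier results of these data known. Alternatives changed the filter, variance model, array weights, centring, probe set rule, controls and arrays used, and added a replicate block. Probe set names marked as shared (suffix s or x) may read several transcripts; 12 of the 25 members tested have one.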

Additional observations from a re-analysis of the deposited data

How the results depend on the processing

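A fit against 1 control array holds no spread between controls, so calls from those fits are not given. The count of members called was 6 with array weights. It was 0 under every other setting with several arrays per group, including the removal of each array in turn. All genes called, 19 in the reported analysis, numbered 3945 with array weights, 234 after centring on housekeeping genes, 50 after centring on the median, 3447 against control 1 alone, 5 against control 2 alone and 45 against control 3 alone. With 1 array left out they ranged from 0 (without control 3 or any 1 manganese array) to 43 (without control 2). The share of higher calls was 171 of 234 and 38 of 50 under the centrings, 1966 of 3945 with weights and 18 of 19 as reported. The centrings moved the median of all genes from 0.02 to 0.09 (housekeeping) and 0.04 (median) and reversed no named member. The median of the members, 0.06, was 0.18 against control 1 alone and 0.01 to 0.12 with 1 array left out. Members without overlap, 3 as reported, were 6 after housekeeping centring (18.3% of all genes). They were 17, 14 and 12 of 25 against controls 1, 2 and 3 alone, where 77.6%, 56.8% and 63.5% of all genes did not overlap, and 4 to 8 with 1 array left out (24.6% to 38.8%). Of the 25 members the sign turned for 2 against control 1 alone, 12 against control 2 alone and 4 against control 3 alone. Among the 14 with values on each array, against control 2 alone the difference turned to -0.014 for IFI35, -0.093 for IFI6, -0.043 for IFITM1, -0.010 for ISG15 and -0.051 for ISG20, against control 3 alone to -0.066 for IFNAR1 and -0.030 for ISG20, with weights to -0.055 for IFNAR1 and -0.011 for ISG20, and with the mean of probe sets to -0.034 for IFNAR2. Among the others IFI27 (-0.22), IRF1 (-0.18), TRIM25 (-0.11) and IFITM3 (-0.06) turned negative and ZC3HAV1 (0.18), OASL (0.017) and EIF2AK2 (0.0028) positive against control 2, TRIM25 (-0.26) and OAS1 (-0.011) turned negative against control 1, and IFITM3 (-0.15) and OAS1 (-0.07) against control 3. With 1 array left out IFITM1 ranged from -0.017 to 0.134, IFNAR1 from -0.022 to 0.0575 and ISG20 from -0.040 to 0.282. Without control 1 the difference was -0.13 for ADAR, 0.11 for IRF3, 0.29 for IRF7, 0.12 for ISG15, 0.03 for IFI35 and 0.01 for IFI6, and without control 2 it was -0.06 for DHX58 and 0.04 for IFNAR2. The cause of these changes was not tested.

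Deviations of same-numbered arrays from their group means correlated at -0.305, 0.153 and -0.272. Differently numbered arrays ran from -0.442 (control 2 with manganese 3) to 0.501 (control 1 with manganese 3). Control 2 with manganese 1 was at 0.363 and control 3 with manganese 2 at 0.299. Deviations within a group cancel out, so these values cannot settle whether arrays were paired. With the replicate number as a block 6 genes and 0 members were called, and the median of the members was 0.06.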

Other observations

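Of 3 probe sets annotated to a member and to other genes at once, 1 that lists USP18 was below the filter on all 6 arrays and differed by -0.10. Of the 2 that list OAS2 with OAS3, 1 ranked over the 40th percentile on all 6 arrays and differed by -0.11. The other did so on only 1 array, failed the filter and differed by 0.17.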
